A study of Mus musculus with 12 samples.

Results

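Late disease was compared with remission in spinal cord microglia of the Biozzi ABH mouse strain. The mice had chronic-relapsing EAE (crEAE; EAE is experimental autoimmune encephalomyelitis), a model in which immune attack on the brain and spinal cord is induced. The samples were those labelled with the chronic phase (3 mice) and with remission (3 mice), which are 6 of the 12 libraries of the study. The other 6 came from control mice of the same strain (3) and from mice in the acute phase of crEAE (3), and they entered the same statistical model. Both groups compared carry the disease, so what they share against health does not show in this comparison. The sorting gate kept CD11b-positive cells with intermediate CD45 and without Ly-6C. The labels give no age of the mice, no method of disease induction and no clinical score.

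Microglia are the resident macrophages of the central nervous system. In health they hold a surveying state marked by genes such as P2ry12 and Tmem119, and in autoimmune inflammation they respond to interferons and other cytokines, present antigen, take up myelin debris and can divide. In relapsing models the first attack is followed by a remission, after which deficits build up again in a late phase.

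The 6 libraries held 3992885 to 5712376 counts. Of these, 56.4 to 62.7% fell on the 6 most abundant features and 2.51 to 4.36% on mitochondrially encoded genes, which left 1442371 to 2095754 counts for all other genes. Levels are given as CPM, the count scaled to the size of its library, and 3 libraries stood apart in ways that bear on the results. Remission replicate 3 held 7527 counts of Xist and 0 of the Y-linked genes Ddx3y, Eif2s3y, Kdm5d and Uty, whereas the other 11 libraries held 0 to 23 counts of Xist and at least 62 of each Y-linked gene. The labels give no sex. The summed level of 23 tested immediate-early genes was also 1791 CPM in it, against 422 and 455 in the other remission and 323 to 615 in the chronic libraries. Remission replicate 1 held 751 CPM of 13 tested oligodendrocyte and myelin genes, where the other 5 libraries held 75.6 to 154. Chronic replicate 3 held the most transcripts of the cell cycle.

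A modest set of genes distinguished the phases, and most of them were higher in late disease. Of 12545 genes tested, 118 were higher (0.941%) and 33 lower (0.263%) in chronic than in remission microglia at an adjusted p under 0.05 (151 in all, 1.20%). The change exceeded 2-fold for 75 of the higher and 15 of the lower genes. In 149 of the 151 the 3 chronic libraries did not overlap the 3 remission libraries. The exceptions were Irgm2 and H2-DMb2, both named for that reason. The median log2 fold change of all genes tested was -0.01, and 48.4% of them were positive. Irrespective of any test, all chronic libraries lay above all remission libraries for 9.42% of genes and below for 8.42%. An unadjusted p under 0.05 was reached by 1971 genes. The plot of fold change against level shows that the called genes lie mostly above 0 and that low levels carry the widest spread.

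**Figure D1:**
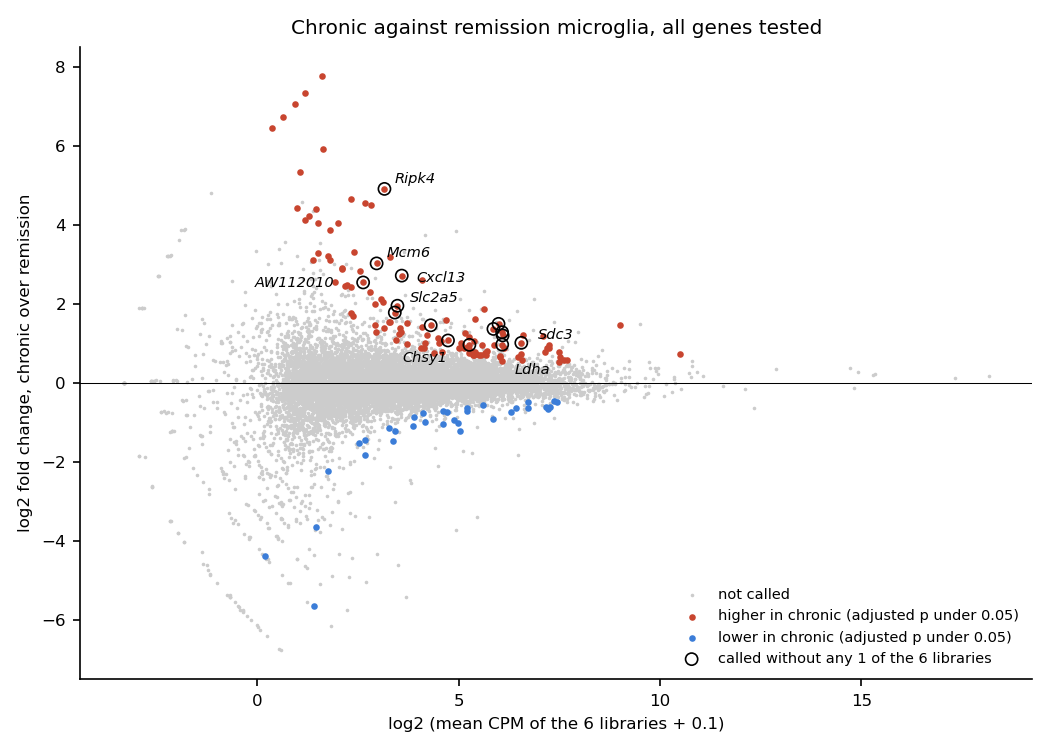
Log2 fold change, chronic over remission, against the log2 of the mean level over the 6 libraries, with 1 point per gene tested. Red points are the 118 genes higher and blue points the 33 lower in chronic microglia, and the 15 ringed genes were called whichever 1 of the 6 libraries was left out, all of them above 0.

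The genes that held best were 15 that rose in chronic microglia and were called again whichever 1 of the 12 libraries was left out. None of the 33 lower genes met that standard. They were picked here by that criterion after their values were seen. Ripk4 (chr16:97741933-97763787, GRCm38), a kinase best known from skin differentiation, stood at 0.554, 0.957 and 0 CPM in the remission libraries and at 24.7, 17.6 and 8.93 CPM in the chronic ones. Its log2 fold change was 4.90 ± 0.58 (SE, adjusted p = 0.000596), and it lay at or below 0.284 CPM on average in control and acute mice. Cxcl13 (chr5:95956951-95961068), a chemokine that attracts B cells, stood at 2.21, 4.02 and 3.19 CPM in remission and at 26.1, 17.5 and 18.4 CPM in chronic disease. Its log2 fold change was 2.71 ± 0.32 (adjusted p = 0.000596). It had 0 counts in the control libraries and a mean of 1.11 CPM in acute mice. Both genes were thus near absent in control and acute microglia and highest in late disease.

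Sdc3, Chsy1 and Srgn were also among the 15. Sdc3, which encodes the proteoglycan syndecan-3, rose from 60.9, 58.5 and 67.7 CPM to 134, 113 and 129 CPM, a log2 fold change of 1.01 ± 0.16 (adjusted p = 0.00531). Chsy1, a chondroitin sulfate synthase, rose from 24.5, 25.1 and 28.7 CPM to 58.8, 43.2 and 49.7 CPM (0.96 ± 0.16, adjusted p = 0.00604). Srgn, the core protein of the proteoglycan serglycin, rose from 15.1 to 19.4 CPM in remission to 29.9 to 43.1 CPM in chronic libraries. Sdc3 was also above control in both phases, whereas Chsy1 stood below its control mean of 57.4 CPM in remission and near it in chronic mice. Its log2 fold change against control was -1.14 (adjusted p = 5.32e-05) in remission and -0.19 (adjusted p = 0.494) in chronic mice.

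Ildr2, a membrane protein of the immunoglobulin superfamily, rose from 30.6, 39.4 and 48.6 CPM to 92.6, 86.8 and 107 CPM (log2 fold change 1.28 ± 0.18, adjusted p = 0.00112). Its control mean was 29.4 CPM and its acute mean 23.3 CPM. Dab2, an endocytic adaptor, rose from 3.14, 5.74 and 5.58 CPM to 19.7, 17.3 and 11.7 CPM (1.77 ± 0.27, adjusted p = 0.00251). AW112010, a transcript induced in activated immune cells, rose from 0.738, 2.3 and 2.39 CPM to 12.9, 8.1 and 9.95 CPM, and stood at 91.9 CPM on average in acute mice. In each of these genes the lowest chronic library lay above the highest remission library. Ldha, Mcm6, Irgm1, Irf1, Slc2a5 and C5ar1, also among the 15, are described with their groups below, and the plot by library shows 14 of the 15 in the 4 groups.

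Of 36 tested cell cycle genes 12 rose in chronic microglia, and those of G2 and M phase had the largest positive median of the 48 lists. All 19 tested genes of G2 and M phase (of 22 listed) had a positive log2 fold change, with a median of 3.01, and 8 rose. All 17 tested S phase genes (of 21) were positive, with a median of 1.29, and 4 rose. All chronic libraries lay above all remission libraries in 15 of the 19 and 13 of the 17, where over all genes tested this held for 9.42% and 0.941% were called higher. The summed G2 and M level was 29.2, 16.8 and 11.2 CPM in remission and 93.1, 80.1 and 401 CPM in chronic disease. Control libraries held 28.5 to 39.7 CPM and acute libraries 123 to 162 CPM. The S phase sum was 98.3 to 103 CPM in remission, 165, 166 and 370 CPM in chronic, 114 to 132 CPM in control and 166 to 193 CPM in acute libraries. For S phase all remission libraries lay below all controls, and for G2 and M phase all but remission replicate 1 did. Every chronic library lay above every control library in both sums.

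Among the licensing and replication genes, Mcm6 (chr1:128331590-128359664), a subunit of the replicative helicase, stood at 1.85, 1.91 and 1.06 CPM in remission and at 9.53, 7.74 and 24 CPM in chronic mice (log2 fold change 3.02 ± 0.42, adjusted p = 0.00112). Mcm5, of the same complex, rose from 4.78 to 8.68 CPM to 12.3 to 31.6 CPM. Uhrf1, which maintains DNA methylation at replication, rose from 0.923, 0.191 and 0.531 CPM to 8.85, 3.78 and 27.8 CPM (4.51 ± 0.80, adjusted p = 0.0228). Pole, the catalytic subunit of DNA polymerase epsilon, rose from 1.06 to 1.66 CPM to 4.14 to 21.2 CPM. Chaf1a, a histone chaperone at the fork, rose by 3.10 ± 0.67 on the log2 scale. Chronic replicate 3 was highest in each of these genes, and the other 2 chronic libraries were also above all remission libraries.

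Of the mitotic genes, the cyclin gene Ccna2 stood at 1.66, 1.72 and 1.06 CPM in remission and at 5.22, 4.14 and 15.8 CPM in chronic mice (log2 fold change 2.43 ± 0.48, adjusted p = 0.0201). Ccnb1, the cyclin of mitotic entry, had 1 count over the 3 remission and 74 over the 3 chronic libraries, so its pooled level was 76.8 times as high (95% counting interval 13.4 to 3075). Cenpf, a kinetochore protein, rose from 0.266 to 0.738 CPM to 3.24 to 26.3 CPM, and the spindle factor Tpx2 from 0 to 0.957 CPM to 2.7 to 12 CPM. Racgap1 and Iqgap3, which act in cytokinesis and in proliferating cells, and the nuclear importin Kpna2 also rose, by 2.12 ± 0.49, 2.04 ± 0.48 and 2.30 ± 0.45. The 5 called genes with 0 counts in remission, named for that reason, were Kif14, Pimreg, Nek2, Cep55 and Ckap2, and they were at least 25.6-, 19.0-, 15.6-, 12.5- and 10.4-fold higher against a floor of 3 counts over the 3 remission libraries.

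The number of called cell cycle genes depended on single libraries more than their direction did. Of the G2 and M genes 3 were called without chronic replicate 3, 5 without remission replicate 2, 1 without remission replicate 1 and 0 without remission replicate 3. The number was 13 without chronic replicate 1 or 2. Of the S phase genes 2 were called without chronic replicate 3, 1 without remission replicate 3 and 9 without chronic replicate 1. The G2 and M median stayed between 2.01 and 3.56 and the S phase median between 0.82 and 1.51 over these 6 fits, with the lowest value without chronic replicate 3 in both. With the 6 libraries alone, 0 G2 and M genes and 1 S phase gene were called. Limma-voom called 0 genes of either list, whereas DESeq2 called 13 G2 and M genes and 8 S phase genes. In bulk RNA, more cells of a kind and more RNA per cell cannot be told apart, so these values do not give a number of dividing cells. The summed level of 16 tested monocyte and recruited macrophage genes was 147 to 171 CPM in remission and 189 to 207 CPM in chronic libraries, against 2361 to 3339 CPM in acute ones. Its part in the cell cycle values was not tested. Outside the lists, Pole, Kpna2, Racgap1 and Iqgap3 were each lost without any 1 of remission replicates 1 and 3 and chronic replicate 3. The 5 genes at 0 counts in remission were lost without remission replicate 3. Kif14, Nek2 and Cep55 were also lost without any 1 of remission replicates 1 and 2 and acute replicate 2. Pimreg, Nek2, Cep55 and Ckap2 were also lost without chronic replicate 3.

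The promoter of Ccnb1 is shown because the box CCAAT recurs upstream of many mitotic genes. Over 250 bases before and 50 after the start (RefSeq, GRCm38.p6, chr13:100786437-100786736, minus strand, 5′ to 3′), it holds 2 CCAAT boxes, in capitals, the first 99 bases before the start.
Ccnb1: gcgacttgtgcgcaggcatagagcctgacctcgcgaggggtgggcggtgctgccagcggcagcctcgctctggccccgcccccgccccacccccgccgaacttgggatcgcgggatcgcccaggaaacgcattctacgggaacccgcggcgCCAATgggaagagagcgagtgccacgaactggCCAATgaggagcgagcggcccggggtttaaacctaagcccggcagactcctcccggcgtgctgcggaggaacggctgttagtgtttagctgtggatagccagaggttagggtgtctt
Of the 12 called S, G2 and M phase genes 10 were matched in the promoter table. CCAAT on either strand was held by 9 of them in at least 1 listed promoter, against 37.4% of all 32851 single promoters. It was also held by 4 of the 5 matched interferon and antigen presentation genes described below, so it was not particular to the cell cycle genes. The element TTTGAA was present in 3 of the 10 and in 17.9% of all promoters. These matches describe the sequence and show no bound factor.

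Of 22 tested genes of the interferon gamma response 3 rose in chronic microglia, where 0.941% of all genes tested rose. The list's level differed between the chronic mice. Positive changes were seen in 20 of the 22, with a median log2 fold change of 1.38, and 5 had non-overlapping higher libraries (9.42% of all genes tested had). The summed level was 685, 779 and 684 CPM in remission and 633, 1228 and 1631 CPM in chronic libraries, so chronic replicate 1 lay below all remission libraries while the other 2 lay above. Control libraries held 589 to 633 CPM and acute libraries 3013 to 3458 CPM. Without chronic replicate 1, 15 of the 22 were called, and the median was 1.67. Without chronic replicate 2 or 3, or remission replicate 1 or 3, 2 were called.

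Irf1, a transcription factor of the interferon response, stood at 37.8, 45.9 and 40.1 CPM in remission and at 62, 99.2 and 123 CPM in chronic mice (log2 fold change 1.20 ± 0.19, adjusted p = 0.00531). Irgm1, an immunity-related GTPase, stood at 30.6, 30.6 and 36.4 CPM and at 59.2, 72.7 and 119 CPM (1.36 ± 0.19, adjusted p = 0.00251). Of 32 tested type I interferon genes 26 were positive, with a median of 0.45. In Irf1 and Irgm1 chronic replicate 1 was the lowest chronic library and still above all remission libraries. Irgm2, also called (1.05 ± 0.24, adjusted p = 0.0454), overlapped, with 17.7 CPM in chronic replicate 1 against 18.7 in remission replicate 2. Its call ended without any 1 of 10 of the 12 libraries, remission replicate 2 and chronic replicate 1 excepted. Iigp1 stood at 7.94 to 9.76 CPM in remission and 17.7, 49.7 and 97.2 CPM in chronic mice and did not pass (adjusted p = 0.0655).

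The promoters of Irf1 and Irgm1 are shown because they hold the elements through which interferon signals act. The interferon gamma-activated site was searched as TTCNNNGAA and the interferon-stimulated response element by its core GAAANNGAA, on both strands, with matches in capitals. The 2 elements share the letters GAA and can overlap. Irf1 is at chr11:53769764-53770063 on the plus strand and Irgm1 at chr11:48871371-48871670 on the minus strand (RefSeq, GRCm38.p6).
Irf1: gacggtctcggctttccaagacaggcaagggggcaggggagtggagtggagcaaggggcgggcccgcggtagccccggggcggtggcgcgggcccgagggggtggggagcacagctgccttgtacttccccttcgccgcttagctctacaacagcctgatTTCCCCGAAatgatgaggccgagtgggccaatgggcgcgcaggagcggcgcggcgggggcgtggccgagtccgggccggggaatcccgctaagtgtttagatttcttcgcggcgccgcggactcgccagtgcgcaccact
Irgm1: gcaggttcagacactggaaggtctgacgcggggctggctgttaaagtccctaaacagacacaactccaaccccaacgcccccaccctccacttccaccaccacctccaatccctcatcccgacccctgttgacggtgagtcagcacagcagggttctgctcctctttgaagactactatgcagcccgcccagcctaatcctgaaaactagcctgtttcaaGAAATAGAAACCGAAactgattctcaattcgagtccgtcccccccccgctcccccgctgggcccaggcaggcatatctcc
Irf1 held 1 gamma-activated site, 90 bases before the start, and Irgm1 held 2 overlapping response elements, the first 30 bases before it. Of the 5 called interferon and antigen presentation genes matched in the table, 2 held the first element and 2 the second in at least 1 listed promoter. The shares of all single promoters were 8.3% and 8.56%. Irgm2 held both. These, too, are matches of letters only.

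Of 30 tested antigen presentation genes 3 rose, where 0.941% of all genes tested rose. Of the 17 genes of class I presentation all were positive, with a median log2 fold change of 0.39, and 2 rose. Nlrc5, the transactivator of class I genes, stood at 105, 125 and 90.3 CPM in remission and at 142, 220 and 232 CPM in chronic mice (0.89 ± 0.16, adjusted p = 0.0127). Psmb9, an immunoproteasome subunit, rose from 23.6 to 35.6 CPM to 36.3 to 55.6 CPM. Of the 13 genes of class II presentation and co-stimulation 11 were positive, with a median of 0.80, 8 had non-overlapping higher libraries (9.42% of all genes tested had), and 1 rose. That gene was H2-DMa, whose product loads peptides onto class II molecules, at 48.9, 38.8 and 31.9 CPM in remission and 52.2, 90.9 and 89.8 CPM in chronic mice (0.95 ± 0.19, adjusted p = 0.0203). H2-Ab1 stood at 179, 169 and 89.2 CPM and at 248, 531 and 282 CPM without passing (1.28 ± 0.33, adjusted p = 0.0933). Ciita, the class II transactivator, reached 88.8 and 54.1 CPM in 2 chronic libraries and 17 CPM in chronic replicate 1, against 9.97 to 14.7 CPM in remission (adjusted p = 0.106). Without remission replicate 3 none of the class I or class II genes was called. Without chronic replicate 1, 5 class I and 2 class II genes were called. The class I number was 1 without remission replicate 1 or chronic replicate 2 or 3, and the class II number was 2 without remission replicate 2 and 0 without chronic replicate 3. Reads of near-identical members of the H2 family may be shared.

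Of 19 tested genes of glycolysis 3 rose in chronic microglia, where 0.941% of all genes tested rose. The list had 15 positive changes and a median log2 fold change of 0.34, which was 0.17 without chronic replicate 2, and 7 of the 19 had non-overlapping higher libraries (9.42% of all genes tested had). Ldha (chr7:46841475-46855627), lactate dehydrogenase A, stood at 48, 44.6 and 44.6 CPM in remission and at 93.1, 79.4 and 95.4 CPM in chronic mice (0.96 ± 0.13, adjusted p = 0.000909). The spread within each group was small next to the gap between them, and the control mean was 33.6 CPM and the acute mean 147 CPM. Pkm, pyruvate kinase, stood at 112, 101 and 97.5 CPM and at 185, 167 and 214 CPM (0.87 ± 0.14, adjusted p = 0.00604), and its call ended without remission replicate 3. Eno1, an enolase, rose by 0.66 ± 0.16 on the log2 scale from 56.4 to 82.9 CPM in remission (adjusted p = 0.0458), with all chronic libraries at 84.4 CPM or above. Without remission replicate 3 only 1 gene of the list was called, with remission replicate 2, chronic replicate 1 or chronic replicate 3 left out 2, and without chronic replicate 2, 4. The summed level was 1047 to 1143 CPM in remission and 1305 to 1319 CPM in chronic libraries. Processed pseudogenes of these enzymes may share reads with them.

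Nuclear-encoded genes of oxidative phosphorylation were positive in 27 of 28 cases, with a median log2 fold change of 0.54 and 13 genes with non-overlapping higher libraries (9.42% of all genes tested had these), yet only Cox6a1, a subunit of cytochrome c oxidase, was called (1.46 ± 0.35, adjusted p = 0.0458). Its levels were 5.54, 2.3 and 3.98 CPM in remission and 11.1, 7.02 and 15 CPM in chronic mice. Of the 13 mitochondrially encoded genes 10 were positive and 0 were called. Acaca, the first committed enzyme of fatty acid synthesis, rose from 37.3, 23.9 and 27.4 CPM to 61.3, 48.6 and 42.6 CPM (0.78 ± 0.19, adjusted p = 0.0478). It was the only call among 28 genes of cholesterol and fatty acid synthesis, whose median was 0.09. Over all genes tested 0.941% were called higher. The calls of Cox6a1, Acaca and Eno1 each ended without any 1 of remission replicates 2 and 3, chronic replicates 1 and 3 and the 3 control libraries, and with library totals in place of scaling factors.

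Of 16 tested complement genes 2 rose, where 0.941% of all genes tested rose. The list had 12 positive changes and a median of 0.30, and 6 of the 16 had non-overlapping higher libraries (9.42% of all genes tested had). C4b (chr17:34728380-34743882), a complement component, stood at 263, 248 and 317 CPM in remission and at 676, 670 and 927 CPM in chronic mice (log2 fold change 1.46 ± 0.25, adjusted p = 0.0217), against 7.92 CPM in control mice. Its near-identical neighbour C4a stood at 4.78 to 6.46 CPM and 7.38 to 11.7 CPM, and reads of the pair may be shared. C5ar1, the receptor of the fragment C5a, stood at 9.04, 9.37 and 13.3 CPM and at 17.9, 26.6 and 41.6 CPM (1.45 ± 0.26, adjusted p = 0.0149). The C1q subunit genes C1qa and C1qb had positive changes of 0.38 and 0.52 that did not pass (adjusted p = 0.244 and 0.105). C4b was lost without remission replicate 1, remission replicate 3 or chronic replicate 3, and 3 complement genes were called higher without chronic replicate 2 and 1 was called lower without chronic replicate 1.

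Receptors and lysosomal enzymes gave single calls, where over all genes tested 0.941% were called higher and 0.263% lower. Fcer1g, the shared signalling chain of Fc receptors, rose from 58.3, 55.9 and 50.5 CPM to 88.5, 73.1 and 78.8 CPM (log2 fold change 0.54 ± 0.12, adjusted p = 0.0333), and all 7 Fc receptor genes were positive with a median of 0.40. Gusb, the lysosomal beta-glucuronidase, rose from 150, 144 and 132 CPM to 247, 187 and 233 CPM (0.65 ± 0.14, adjusted p = 0.024), the only call of 32 lysosomal genes, whose median was 0.14. Of 19 phagocytic and scavenger receptors 1 rose and 1 fell. Msr1, a scavenger receptor for modified lipoproteins that is also on the lipid list, rose from 3.51, 6.31 and 4.25 CPM to 27, 19.3 and 40.8 CPM (adjusted p = 0.0427). Cd300a, an inhibitory receptor for membrane phospholipids, fell from 44.7, 32.3 and 50.2 CPM to 21.1, 24.5 and 16.1 CPM (-1.03 ± 0.24, adjusted p = 0.0476), and it was also the only call of 18 paired receptors. The checkpoint receptor Lag3 stood at 214, 189 and 241 CPM in remission and at 116, 157 and 72.2 CPM in chronic mice without passing (-0.89 ± 0.23, adjusted p = 0.0777). The 4 calls of this group each ended without any 1 of remission replicates 1 and 3 and chronic replicates 1 and 3, except that Gusb kept its call without chronic replicate 1.

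Of the genes with large changes, some lay outside the lists. Htra3, a secreted serine protease, rose from 2.77, 1.91 and 0.797 CPM to 32.2, 9.36 and 10.7 CPM (log2 fold change 3.17 ± 0.55, adjusted p = 0.0184), with the highest value in chronic replicate 1, and was lost without remission replicate 3. Net1, a guanine nucleotide exchange factor, rose from 4.06, 1.72 and 3.19 CPM to 20.4, 8.28 and 6.89 CPM (1.98 ± 0.45, adjusted p = 0.0446), a call that ended without any 1 of the remission libraries or chronic replicate 1. Among cytokines and chemokines Cxcl13 was the only 1 of 20 called, where 0.941% of all genes tested were called higher. The median of that list was -0.01. Ccl2, for example, stood at 0.454 CPM in chronic replicate 1 and at 4.32 and 14.8 CPM in the other chronic libraries, against 0.554 to 1.06 CPM in remission (adjusted p = 0.149).

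Of 27 tested homeostatic genes, which mark microglial identity, 11 were positive, with a median of -0.08, and the summed level was 12764 to 13396 CPM in remission and 11925 to 12869 CPM in chronic libraries, below the 16411 to 18963 CPM of controls. P2ry12 stood at 334, 312 and 328 CPM in remission and at 246, 298 and 238 CPM in chronic mice (log2 fold change -0.32 ± 0.16, adjusted p = 0.364), against a control mean of 679 CPM. Tmem119 stood at 458, 579 and 564 CPM and at 577, 568 and 617 CPM (0.14 ± 0.15, adjusted p = 0.729). The levels of Tmem119 overlapped between the phases, whereas all chronic libraries lay below all remission libraries for P2ry12. Of the 27 genes, 2 had all chronic libraries below all remission libraries and 2 had all above. Over all genes tested 8.42% lay below and 9.42% above. Slc2a5 (chr4:150119283-150144169), a fructose transporter characteristic of microglia, was the only gene of the list that was called, where 0.941% of all genes tested were called higher. It stood at 3.51, 4.78 and 5.31 CPM in remission and at 10.4, 13.9 and 28.3 CPM in chronic mice (1.95 ± 0.31, adjusted p = 0.00531). Its control mean was 40.9 CPM and its acute mean 0.736 CPM. Against control its log2 fold change was -3.18 (adjusted p = 8.07e-07) in remission and -1.24 (adjusted p = 0.00217) in chronic mice.

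None of 27 tested damage-associated genes was called, where 0.941% of all genes tested were called higher and 0.263% lower. The median of the list was 0.22. In 4 of the 27 all chronic libraries lay above all remission libraries, and in 0 below. Over all genes tested these shares were 9.42% and 8.42%. The median was 0.008 without chronic replicate 1, and DESeq2 called 3 of the genes higher, limma-voom 1 and the fit without chronic replicate 2, 1. Apoe, a lipid carrier, overlapped between the groups (log2 fold change -0.17 ± 0.34, adjusted p = 0.869), as did Trem2 (-0.24 ± 0.17, adjusted p = 0.55). Spp1, osteopontin, stood at 70.5, 40.9 and 19.1 CPM in remission and at 234, 106 and 236 CPM in chronic mice and did not pass (2.12 ± 0.47, adjusted p = 0.0733). Clec7a and Igf1 stood higher in chronic mice on average without passing (0.82 ± 0.29 and 0.92 ± 0.33). Of the sort genes, Ptprc, which encodes CD45, differed by -0.18 ± 0.13 (adjusted p = 0.551). The CD11b gene Itgam had levels of 109, 79.2 and 112 CPM in remission and at 161, 135 and 230 CPM in chronic mice (0.81 ± 0.21, adjusted p = 0.0773). Ly6c1 had 0 counts in all 6 libraries and Ly6c2 had 5 counts in remission and 3 in chronic disease.

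Of the 35 functional lists 18 held no called gene, where 1.20% of all genes tested were called in either direction. The medians of these 18 lists ran from -0.58 for the immediate-early response to 0.55 for glucocorticoid targets. The immediate-early median turned to 0.31 without remission replicate 3, and 1 gene of that list was called lower without chronic replicate 2. The glucocorticoid median was 0.11 without chronic replicate 1, whose summed level of that list was 1164 CPM against 499 and 569 CPM in the other chronic libraries and 387 to 823 CPM in remission, and 1 gene was called higher without remission replicate 2. The others were the NF-kB, damage-associated, vacuolar ATPase and autophagy, mitochondrially encoded, cytosolic ribosomal, chaperone, stress response, antioxidant, circadian, hypoxia, TGF-beta, growth factor, integrin, purinergic, iron, and axon and synapse remodelling lists. Among growth and repair factors (median 0.45, 15 of 21 positive), Anxa2 stood at 3.19 to 3.63 CPM in remission and 6.12 to 9.18 CPM in chronic mice (1.13 ± 0.31, adjusted p = 0.0733). Several of the 18 lists held calls under other choices. DESeq2 called 4 integrin genes higher, and 2 each of the growth factor, purinergic, and axon and synapse lists. Without chronic replicate 2, 3 integrin and 3 cytosolic ribosomal genes were called higher. Without remission replicate 2, the hypoxia, stress response, and axon and synapse lists each had 1 gene called lower. In the plot of list members, the cell cycle and interferon gamma lists are the furthest from 0.

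**Figure D2:**
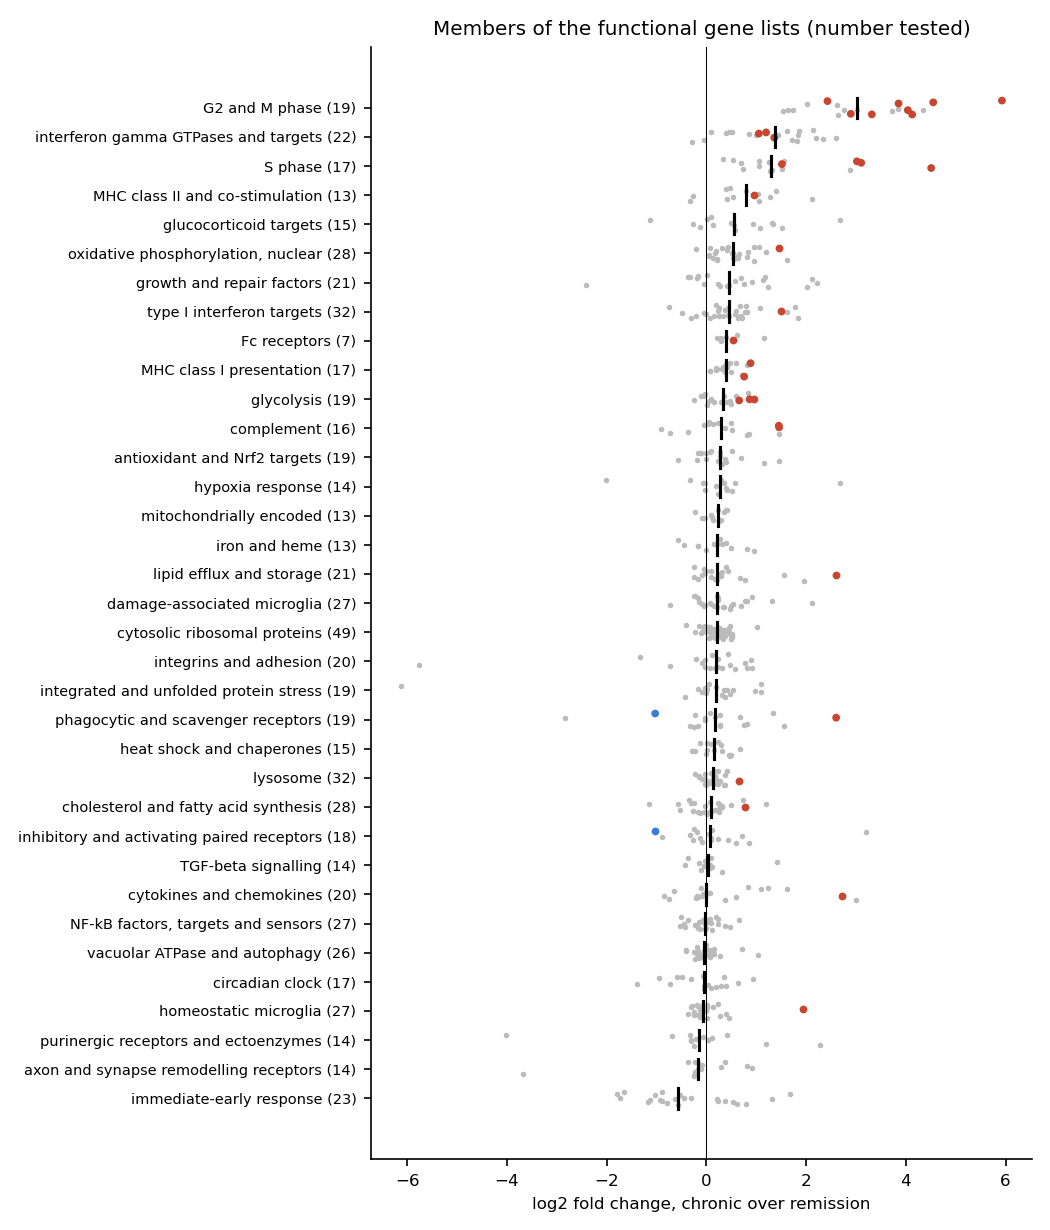
Log2 fold change, chronic over remission, of each tested member of the functional lists with at least 7 tested members, ordered by median (black bar). Red members were higher and blue members lower in chronic microglia, and grey members were not called, with medians running from -0.58 to 3.01.

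The genes lower in chronic microglia were mostly changed by less than those above. Rgl1 (chr1:152516760-152766351), an exchange factor for the small GTPase Ral, fell from 40.2, 32.7 and 42.2 CPM to 15, 20.5 and 24.2 CPM (log2 fold change -0.95 ± 0.17, adjusted p = 0.0127). Ralgps1, another exchange factor for Ral, fell from 29.7 to 36.3 CPM to 17.5 to 21.6 CPM (-0.75 ± 0.18). Arhgef10l, a guanine nucleotide exchange factor, fell from 9.18 to 16.6 CPM to 4.54 to 7.2 CPM. Maf (chr8:115682942-115707794), a transcription factor of mature macrophages, fell from 84.7, 94.7 and 119 CPM to 58.1, 72.6 and 45.4 CPM (-0.75 ± 0.16, adjusted p = 0.0243), with a control mean of 165 CPM. Zeb1, a zinc finger repressor, fell from 19.6 to 25 CPM to 11.7 to 13.1 CPM.

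Sncaip, which encodes synphilin-1, fell from 17.7, 10.9 and 16.2 CPM to 5.9, 7.74 and 5.36 CPM (log2 fold change -1.22 ± 0.28, adjusted p = 0.0396). Slc5a3, a myo-inositol transporter, fell from 23.4, 13.6 and 22.3 CPM to 7.26, 11.7 and 8.42 CPM, and Asb2, a substrate receptor of a ubiquitin ligase, from 31.2, 23.7 and 44.1 CPM to 14.1, 16.7 and 16.8 CPM. Cfap74, named for cilia and flagella, fell from 71.2, 86.1 and 70.1 CPM to 40.2, 51 and 27.3 CPM (-0.93 ± 0.18, adjusted p = 0.0203), and Rhbdd2, a rhomboid family protein, from 17.8 to 20.5 CPM to 8.4 to 12.8 CPM. In 10 of these 11 genes, counting Cd300a, at least 2 of the 6 libraries ended the call when left out, and Rgl1 was lost only without remission replicate 3. Leaving out remission replicate 3 ended all 11.

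Markers of other cell types were called in 1 case, where 1.20% of all genes tested were called in either direction. At that share, lists this short would hold few calls, so a list without a call shows little. Flt1, counted here with endothelium but called on its own, rose from 15.3, 16.5 and 6.64 CPM to 42.7, 54.4 and 18.9 CPM (log2 fold change 1.58 ± 0.35, adjusted p = 0.0462). Its call ended without any 1 of 10 of the 12 libraries, remission replicate 2 and chronic replicate 3 excepted. The endothelial genes Pecam1 (0.255 to 0.9 CPM in chronic mice), Vwf (0.227 to 1.98 CPM) and Kdr (6.58 to 13.3 CPM) were not called, and 3 of the 15 genes of that list had 0 counts in all 6 libraries. Of 13 tested oligodendrocyte and myelin genes 12 were negative, with a median of -3.04 (-2.46 with genes at 0 set to their bound), and none was called. Without remission replicate 2, 9 of the 13 were called lower, and DESeq2 called 3. The highest sum of this list was that of remission replicate 1, given above, and without it the median was -1.71. T and NK cell genes summed to 7.17 to 9.97 CPM in remission and 3.18 to 9.69 CPM in chronic mice, and neuronal genes to 2.3 to 19.7 CPM and 1.82 to 12.8 CPM. None of 12 tested neutrophil genes was positive or called (median -2.16, or -1.95 with the gene at 0 set to its bound, and 0.69 without remission replicate 1), and DESeq2 called 1 lower. Their sum was 428 to 516 CPM in remission and 302 to 358 CPM in chronic mice, without overlap. Most of it was Csf3r, the receptor of granulocyte colony-stimulating factor, at 458, 426 and 453 CPM in remission and 324, 358 and 290 CPM in chronic mice (-0.46 ± 0.14, adjusted p = 0.0969). Of 8 tested astrocyte genes 2 were positive and none was called (median -1.12, and 0.23 without remission replicate 1), whereas DESeq2 and the fit without remission replicate 2 each called 1 lower. Their sums of 101 to 223 CPM in remission and 117 to 206 CPM in chronic mice overlapped. The part of any of these in the called genes was not tested.

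**Figure D3:**
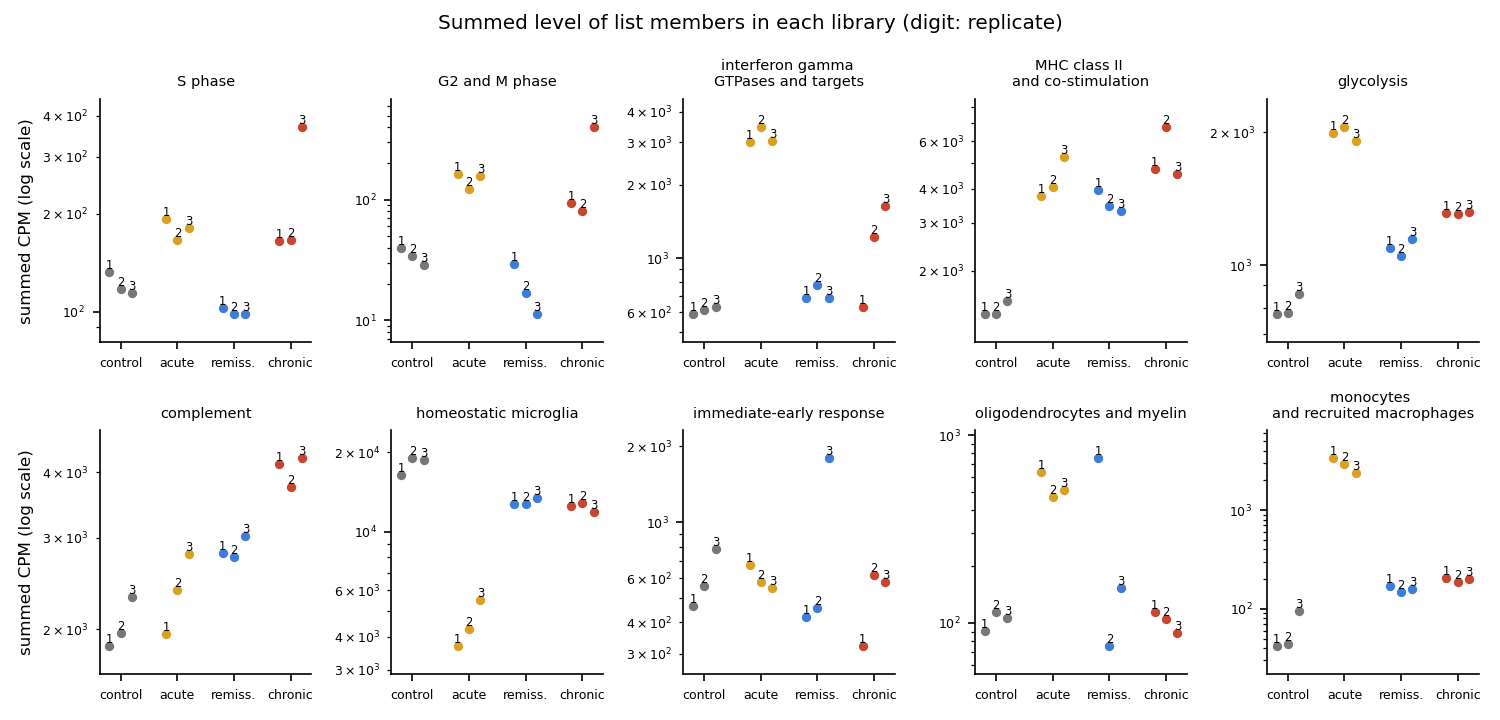
Summed level in CPM (log scale) of the tested genes of 10 lists in each library, with the replicate number beside each point. Both cell cycle sums are highest in chronic replicate 3 and lower in every remission than in every chronic library, the interferon gamma sum of chronic replicate 1 is 633 CPM, and remission replicates 3 and 1 stand apart for immediate-early and myelin genes.

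Control mice place the genes that changed. Of the 118 genes higher in chronic than in remission microglia, 85 were higher and 2 lower in chronic than in control mice, where 14.7% of all genes were called in either direction. Of the same 118, 20 were higher and 11 lower in remission than in control mice, where 9.31% of all genes were called. Of the 33 lower genes, 20 were lower and 0 higher in chronic than in control mice, and 3 were lower and 8 higher in remission than in control mice. These comparisons share the control libraries with each other and the phase libraries with the main comparison, so their counts are given side by side only. For 65 of the 118 the chronic mice were above control while remission was not called either way. The share of all genes tested with this pattern was not counted. Genes chosen as higher in chronic than in remission lean towards it through the shared phase libraries, so no reading is given.

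Acute disease, measured in libraries that neither phase shares, offers another reference, looked at after the values were seen. Both comparisons came from the same fit and share its estimate of spread, scaling and filter. They are therefore not independent, and their counts are given side by side only. Of the 118 genes higher in chronic than in remission microglia, 80 (67.8%) were higher and 10 (8.47%) lower in acute than in control mice, where 23.7% of all genes tested were higher and 20.0% lower. Of the 33 lower genes, 23 (69.7%) were lower and 4 (12.1%) higher in acute mice. Genes with the same direction in the acute phase included Ldha, Irf1, Irgm1 and Msr1. Slc2a5 went the other way, since its acute mean lay far below its control mean while its chronic level lay above that of remission.

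The number of genes called rested on individual libraries. Without remission replicate 3, 17 genes were called, and all 17 were among the 151. Without chronic replicate 3 the number was 50 and without remission replicate 1 it was 65. Without remission replicate 2, chronic replicate 1 or chronic replicate 2 it was 283, 272 and 270. Leaving out a control or acute library, which enters through the shared estimate of spread, the scaling and the filter, gave 94 to 166. No gene of the 151 changed direction in a call under any of these fits. The plot of calls by omitted library shows how many of the 151 each fit kept.

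**Figure D4:**
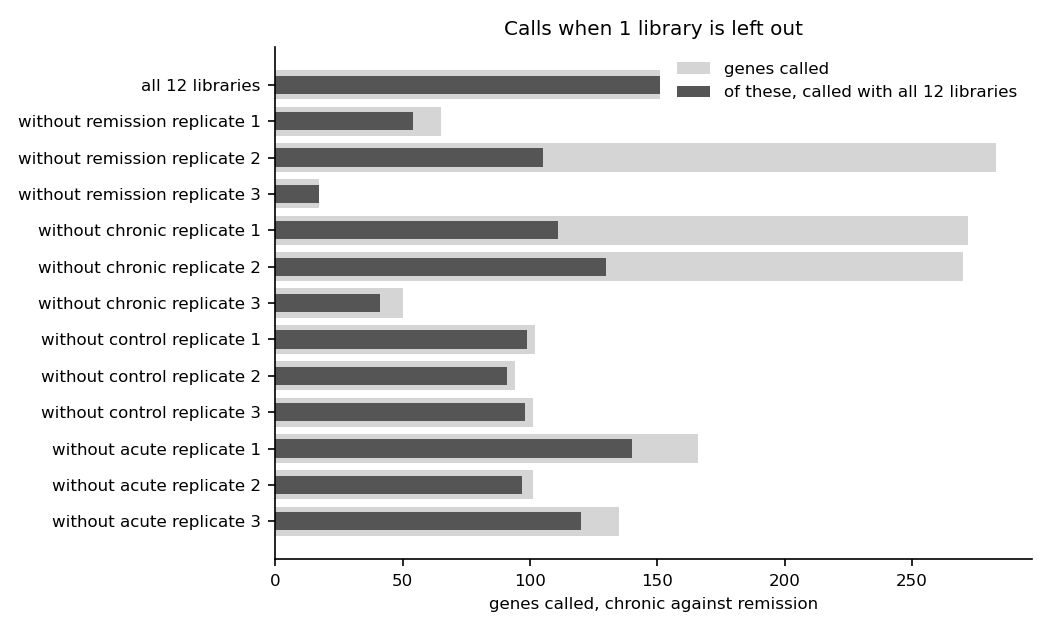
Genes called between chronic and remission microglia with all 12 libraries and without each library in turn (light bars), and how many of them belong to the 151 called with all libraries (dark bars). The bar is shortest without remission replicate 3, with 17 genes, and longest without remission replicate 2, with 283.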

How the data were processed

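RNA from sorted spinal cord microglia of 12 mice was reverse transcribed with random hexamers and made into Nextera XT libraries, which keep no strand, and all libraries ran as single reads on a single flow cell, per the labels' protocols. Per the submitters' processing notes, reads were handled with HISAT2, SAMtools 1.3.1, Picard 2.6.4 and HTSeq 0.6.1 on GRCm38, and no annotation release is given in the sources used here. The deposited values are raw counts, not normalized by the authors, for 48526 gene IDs. The merged table was used, and its columns equalled the 12 single files. Symbols and coordinates came from GENCODE M21, which held 48144 of the IDs. Reads shared by near-identical or antisense genes cannot be told apart.

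Computed here: genes were filtered by filterByExpr of edgeR 4.0.16 (R 4.3.3), TMM factors were applied, and a model of the 4 groups over 12 libraries was fitted, with the quasi-likelihood test in its robust form. P-values were adjusted by the Benjamini-Hochberg method across all 12545 genes that passed the filter. An adjusted p under 0.05 makes a gene called, as higher or lower. "Rose" and "fell" read from remission to chronic. Error terms of log2 fold changes are standard errors, and n = 3 mice per group. Replicate numbers follow record order and pair no mice. Where a group had 0 counts, 3 counts in total were used as its floor. Floors and intervals cover counting error only. On simulated data for this comparison with 12225 genes tested, the fit found 8% of genes altered 1.5-fold and 52% of those altered 2-fold. It found 92% for 4-fold and 88% for 8-fold, and 7 of 127 calls were of unaltered genes. Altered genes were drawn only from those above a minimum level in remission, and no library was made to stand apart. These rates therefore do not cover genes near absent in remission or calls that rest on single libraries.

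Named genes are up to 12 per direction with the largest change among called genes whose groups do not overlap and whose higher group averages at least 10 CPM, without predicted genes, clone names or pseudogenes. To these come up to 4 members with the smallest p per list described and genes that check the sort. A few genes under this rule are not reported here. The comparison, the members and the 48 lists were chosen with earlier results of these data known. Lists are described by counts and medians, without a test. Promoters came from RefSeq (GRCm38.p6). Alternatives were other scalings, filters and tools (DESeq2 1.42.0, limma 3.58.1 voom) and leaving out each library.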

Additional observations from a re-analysis of the deposited data

How the results depend on the processing

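Against 151 genes called (118 higher, 33 lower), leaving out 1 library gave 17 to 283 calls (15 to 238 higher, 2 to 163 lower), the fewest without remission replicate 3. With no filter on low counts 828 were called (484 higher, 344 lower), with DESeq2 385 (277 and 108), with limma-voom 48 (41 and 7) and with only the 6 chronic and remission libraries 26 (23 and 3), where 11104 genes were tested. All 151 were called again without the filter and with DESeq2, 42 with voom and 24 with the 6 libraries. Library totals alone gave 140 calls, split into 86 higher and 54 lower, and moved the median log2 fold change of all genes tested to -0.13. It kept 108 of the 151, and Msr1, Gusb, Fcer1g, Psmb9, Irgm2, H2-DMb2 and Flt1 were among those lost. DESeq2 size factors (163), removal of the most abundant features (177) and no robust estimation (172) stayed within 1.5 times the count. For the changes with voom, DESeq2 and single libraries the cause was not tested. Of the 118 higher genes 11 were called under all 20 alternatives, and of the 15 that held without any 1 library, Mcm6 was lost with voom and Irf1, Slc2a5 and C5ar1 with the 6 libraries alone. No called gene changed direction under any alternative. No paired analysis was possible because the labels give no replicate numbers shared by the groups. Depth limits genes of a few CPM most, and changes of 1.5-fold are mostly missed, as the simulated data show.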

Other observations

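Genes of the actin cytoskeleton and the proteasome activator, picked after their values were seen, were among those higher in chronic microglia. Cfl1, the actin-severing protein cofilin, stood at 52.4, 47.3 and 47.3 CPM in remission and at 79.7, 73.3 and 118 CPM in chronic mice (log2 fold change 0.88 ± 0.16, adjusted p = 0.0127). Dstn, of the same family, stood at 5.58 to 8.99 CPM and 14.8 to 17.3 CPM (1.22 ± 0.23, adjusted p = 0.0181), and Arpc2, a subunit of the complex that branches actin, at 43.6 to 54.3 CPM and 77.1 to 82.6 CPM (0.67 ± 0.14, adjusted p = 0.0228). Psme1 and Psme2, which together form the proteasome activator of antigen processing, rose by 0.85 ± 0.17 and 0.99 ± 0.23 (adjusted p = 0.0203 and 0.0422). All 5 calls ended without remission replicate 3, and those of Cfl1, Arpc2, Psme1 and Psme2 also without chronic replicate 3.

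Some called genes better known from neurons were lower in chronic microglia and highest in remission replicate 1, the library with the most myelin transcripts. The sum of the neuronal list was 16.2 CPM in that library, 2.3 in remission replicate 2 and highest, at 19.7, in remission replicate 3. Rasgrf1 stood at 16.4, 6.31 and 6.64 CPM in remission and at 3.41, 2.52 and 2.3 CPM in chronic mice, and Camk2a at 8.12, 3.06 and 5.05 CPM and at 1.14, 1.44 and 0.765 CPM. Kcna2 had 74 counts over the remission and 1 over the chronic libraries, so its pooled level was 71.3 times as high in remission (95% counting interval 12.4 to 2853). All 3 calls ended without remission replicate 1, and the part of other cells' RNA was not tested.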
